A study of Mus musculus with 2 samples.

Results

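Rhox5, Rhox6, Rhox9 and Rhox10 are reproductive homeobox genes of the X-linked Rhox cluster, and they were followed here in mouse ZHBTc4 embryonic stem (ES) cells. They were chosen by name, with earlier results of these data known: every non-control probe whose gene name in the scanner files was one of the 4 entered. Each gene had 1 probe, so the values rest on 4 of 39429 probes and 4 of 31896 gene names on the array. ZHBTc4 cells carry disrupted endogenous Oct4 alleles and express Oct4 from a transgene that doxycycline represses. 3 monoclonal transfectants were compared, each made with a pCAG-IP vector: clone 26 with Nr5a2-EGFP, clone 9 with Oct4-EGFP, and clone 2-5 with EGFP alone. All 3 received doxycycline before harvest, for a time not given in the sources used here, and all grew without feeders on gelatin in 15% serum with 1000 IU/ml of the cytokine LIF. Each construct is thus represented by 1 clone, and differences between constructs and between clones cannot be told apart.

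The RNA was compared on 2 two-colour oligonucleotide arrays. The EGFP array carried the Nr5a2-EGFP clone in Cy5 and the EGFP clone in Cy3. The Oct4 array carried the Nr5a2-EGFP clone in Cy5 again and the Oct4-EGFP clone in Cy3. No dyes were swapped and no pair was repeated, so values have no replicate error and no test was run. A gene is called higher or lower where its log2 ratio is at least 1 or at most -1, which is a 2-fold difference, and "rose" and "fell" are not used of smaller ones. The only repeated measurement is the Nr5a2-EGFP clone, read on both arrays: the difference between its readings had an SD of 0.30 on the log2 scale over 25500 genes. Both readings are in Cy5, so their difference leaves out a dye effect particular to a gene, which the ratios within an array can hold. Between 78.1% and 80.1% of the 43020 non-control spots were well above background per channel.

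The transfected genes themselves were read as a check of the labels. Nr5a2 was not higher in the Nr5a2-EGFP clone: its brighter probe had a log2 ratio of -0.92 over EGFP and -1.14 over Oct4-EGFP, and its dimmer probe -0.39 and -0.63. Pou5f1, which encodes Oct4, had a log2 ratio of -0.12 over EGFP. It was at least 1.87-fold lower over Oct4-EGFP, where its Nr5a2-EGFP spot was not well above background. Pou5f1 had nearly the same log2 level in Oct4-EGFP cells (7.59) and EGFP cells (7.61). The indirect log2 ratio of these clones, 0.78, missed the threshold and rests in part on that dim Nr5a2-EGFP spot. The check thus bore out neither the Nr5a2-EGFP nor the Oct4-EGFP label. Whether these probes lie within the transfected sequences was not analysed here. All directions below follow the clone labels.

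Homeobox genes encode transcription factors that bind DNA through the homeodomain. The Rhox cluster expanded by duplication in rodents and is divided into the alpha, beta and gamma subclusters, whose members are expressed in testis, ovary, epididymis and placenta. Many are kept silent in embryonic tissues, where their promoters carry DNA methylation, and several are active in trophoblast, the lineage that builds the placenta. ES cells that lose Oct4 are known to turn toward trophectoderm, the first trophoblast tissue.

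The 60-base probes are printed because all values of these genes come from a single probe each, in a family with many close copies. The capitals used in other sequences below mark shared runs or CpG sites; these 5 probes are all in lower case because they hold no long run shared with another probe of the array. The fifth belongs to Rhox13, which is described beside the 4.
Rhox5: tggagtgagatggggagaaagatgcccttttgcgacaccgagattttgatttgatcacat
Rhox6: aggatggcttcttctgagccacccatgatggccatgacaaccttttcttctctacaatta
Rhox9: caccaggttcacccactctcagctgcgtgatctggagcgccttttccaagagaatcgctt
Rhox10: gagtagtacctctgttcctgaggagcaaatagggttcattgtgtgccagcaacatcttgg
Rhox13: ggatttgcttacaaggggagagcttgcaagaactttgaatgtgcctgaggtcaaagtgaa
The longest run that a probe shared with any other probe on the array was 14 bases for Rhox5, 15 for Rhox6 and 13 each for Rhox9, Rhox10 and Rhox13. The files list no second gene for the probes of the 4 genes. The files place the Rhox6 probe at chrX:35182945-35183004, the Rhox9 probe at chrX:35254147-35254206 and the Rhox10 probe at chrX:35424740-35424799 on build mm9. They give the Rhox5 probe no position, although the RefSeq gene table places the gene on the X chromosome. Exon and UTR positions were not analysed here.

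Rhox6, Rhox9 and Rhox10 shared 1 order of levels in these clones, with the EGFP clone highest, the Nr5a2-EGFP clone next and the Oct4-EGFP clone lowest, while Rhox5 stayed within 2-fold in every comparison. In the Nr5a2-EGFP clone, Rhox6 and Rhox9 read 11.5 and 11.3 times as high as in the Oct4-EGFP clone. In the Oct4-EGFP clone, Rhox6, Rhox9 and Rhox10 read 17.0 to 22.0 times lower than in the EGFP clone, as processed here. For Rhox10 the size depended on the processing, with log2 ratios from -5.24 to -3.96. The spots of the 4 genes were well above background and unsaturated in all 4 channels, so each of their ratios is a measured value and not a bound. Where a level differs between clones, fewer cells with the RNA and less RNA per cell cannot be told apart.

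**Figure D1:**
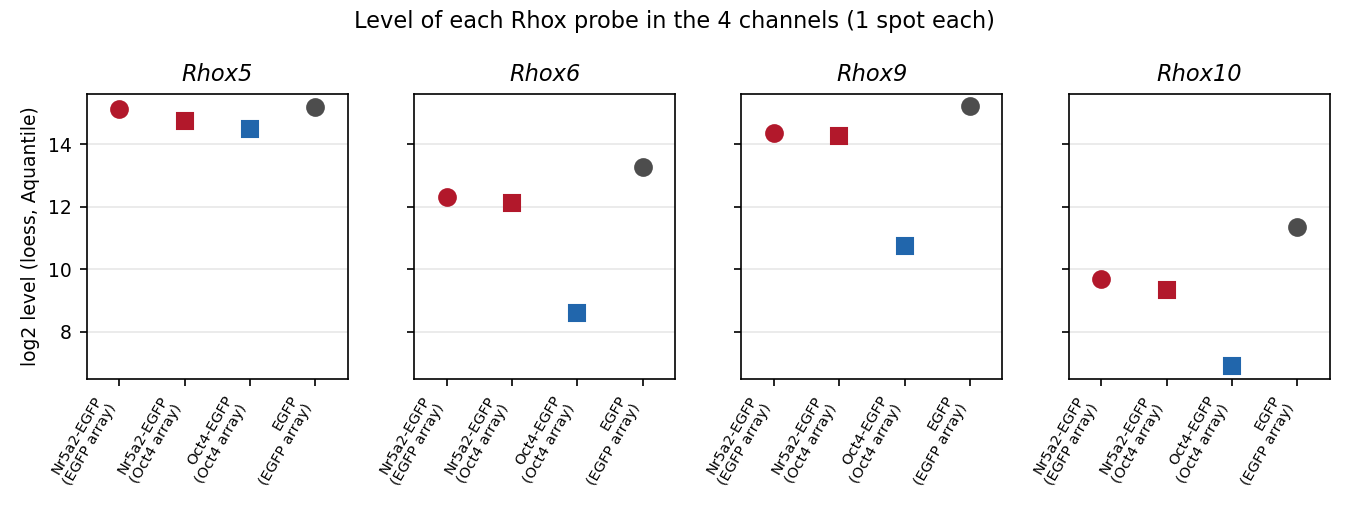
Level of each probe in the 4 channels, as log2 intensity after loess and Aquantile scaling, 1 spot per point. Circles are the EGFP array and squares the Oct4 array, with red for the Nr5a2-EGFP clone, blue for the Oct4-EGFP clone and grey for the EGFP clone. The Oct4-EGFP points of Rhox6, Rhox9 and Rhox10 lie at 8.61, 10.76 and 6.91, below both red points, and the 4 points of Rhox5 span only 14.49 to 15.20.

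Rhox6 and Rhox9 are the placental pair of the beta subcluster: both were first described as placenta-specific homeobox genes, and Rhox9 is also transcribed in germ cells. The log2 level of Rhox6 was 12.32 and 12.13 in Nr5a2-EGFP cells (EGFP array, then Oct4 array), 8.61 in Oct4-EGFP cells and 13.26 in EGFP cells. The Oct4-EGFP clone stood apart as the low one, and both Nr5a2-EGFP readings lay within 0.19 of each other. In the software's processed intensity, Rhox6 read 6214.0 and 4626.1 in Nr5a2-EGFP cells, 312.5 in Oct4-EGFP cells and 11579 in EGFP cells. Rhox9 was laid out in the same way, with log2 levels of 14.36 and 14.26 in Nr5a2-EGFP cells, 10.76 in Oct4-EGFP cells and 15.21 in EGFP cells. Its Nr5a2-EGFP readings lay 0.10 apart, well inside the gaps between clones. Its processed intensities were 23856 and 19136 in Nr5a2-EGFP cells, 1565.3 in Oct4-EGFP cells and 46326 in EGFP cells.

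Rhox10 belongs to the gamma subcluster and acts in male germ cells, where it is needed for spermatogonial stem cells to form in normal number. Its log2 level was 9.71 and 9.35 in Nr5a2-EGFP cells, 6.91 in Oct4-EGFP cells and 11.36 in EGFP cells. The Oct4-EGFP value was the closest of all 16 member readings to the floor of detection: the dimmest probe called well above background in that channel had a level of 6.65. Its processed intensity there was 54.9, against 953.2 and 642.1 in the Nr5a2-EGFP clone and 3056.3 in the EGFP clone. Of the 4 genes, Rhox10 is the one whose ratios against Oct4-EGFP moved most with the processing, as given below.

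Rhox5, the founding member of the cluster and long known as Pem, is expressed in ES cells, in extraembryonic tissue and in Sertoli cells of the testis. Its log2 level was 15.13 and 14.75 in Nr5a2-EGFP cells, 14.49 in Oct4-EGFP cells and 15.20 in EGFP cells. The processed intensities were 39195 and 24087 in Nr5a2-EGFP cells, 22350 in Oct4-EGFP cells and 45404 in EGFP cells. Both Nr5a2-EGFP readings lay 0.38 apart, which is more than either direct ratio of this gene, so no order of the clones can be read for Rhox5. Beside the other members, whose Oct4-EGFP level was the lowest by 2.43 or more, Rhox5 was the exception.

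In the Nr5a2-EGFP clone relative to the EGFP clone, both under repression of the Oct4 transgene, 1 of the 4 genes was at least 2-fold apart. Of all 25990 genes tested, 8.41% were at least 2-fold apart, 3.34% higher and 5.07% lower. Rhox10 was lower by 3.14-fold (log2 ratio -1.65), the 293rd lowest. Rhox6 had a log2 ratio of -0.94 and Rhox9 of -0.84, or 1.91-fold and 1.79-fold lower, and both fell short of the threshold. These ratios were larger than the gaps between the clone's own readings of 0.19 and 0.10, but those gaps, both within Cy5, leave out a dye effect. With the Nr5a2-EGFP level taken from the Oct4 array, Rhox6 passed the threshold at -1.13 and Rhox9 did not at -0.94. Rhox5 had a log2 ratio of -0.07, which turned to 0.10 with the array centred on its median.

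In the Nr5a2-EGFP clone relative to the Oct4-EGFP clone, 3 of the 4 genes were at least 2-fold higher and none was lower, where 11.7% of 26086 genes were at least 2-fold apart, 4.54% higher and 7.11% lower. Rhox6 rose by a log2 ratio of 3.52 (11.5-fold) and Rhox9 by 3.50 (11.3-fold), the 8th and 12th highest of all genes. Rhox10 rose by 2.43 (5.40-fold), the 70th highest. The scanner software's own ratio put Rhox10 at 3.55, a much larger fold than the loess value of 2.43. The deposited value table gave 3.56, an offset of 16 gave 2.82, and the Nr5a2-EGFP reading from the other array gave 2.79. All of these values lay past the threshold in 1 direction, but the size of the Rhox10 difference depends on the processing. The software's error for the log2 ratio was 0.42 for Rhox6, 0.40 for Rhox9 and 0.40 for Rhox10, and it covers the spot alone. Rhox5 had a log2 ratio of 0.26.

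**Figure D2:**
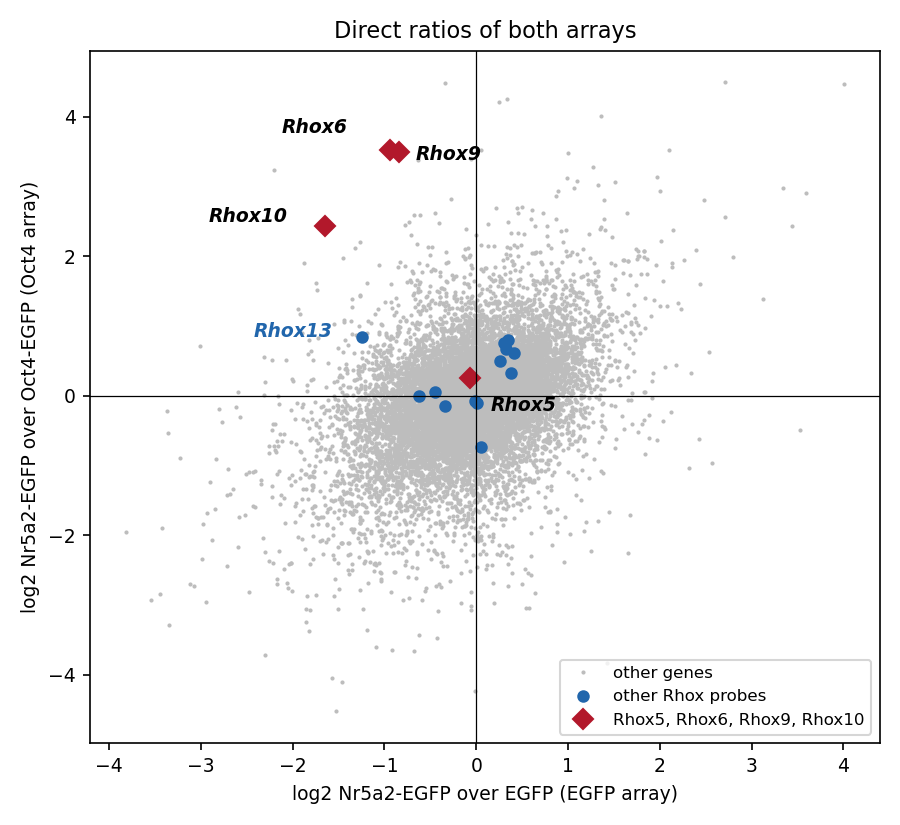
Log2 ratio of the Nr5a2-EGFP clone over the Oct4-EGFP clone (Oct4 array, vertical) against that over the EGFP clone (EGFP array, horizontal), 1 point per gene or Rhox probe. Both axes hold the Nr5a2-EGFP clone, so the slant of the grey cloud is partly built in and is not a result. Red diamonds are the 4 genes and blue circles the other measured Rhox probes: Rhox6, Rhox9 and Rhox10 lie at the upper left, at 3.52, 3.50 and 2.43 on the vertical axis, and Rhox5 lies inside the cloud.

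The Oct4-EGFP clone was set against the EGFP clone indirectly, as the difference of the direct ratios through the shared Nr5a2-EGFP clone, so that a dye effect particular to a gene cancels. In this comparison 3 of the 4 genes were at least 2-fold lower and none was higher, where 12.3% of 26332 genes were at least 2-fold apart, 6.49% higher and 5.86% lower. The log2 ratios were -4.46 for Rhox6 (22.0-fold), -4.34 for Rhox9 (20.3-fold) and -4.08 for Rhox10 (17.0-fold). By these loess values they were the 5th, 6th and 7th lowest of all genes, and thus stood next to each other. Taken as the difference between the Cy3 levels after loess and Aquantile, the values were -4.65, -4.44 and -4.44 in the same order of genes. The software's ratio gave -4.79, -4.57 and, for Rhox10, -5.23, a much larger fold than its loess value of -4.08. Rhox5 had a log2 ratio of -0.33, or -0.70 from the Cy3 levels, and passed the threshold under neither. All 3 comparisons share clones, so their values are not independent of one another.

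**Figure D3:**
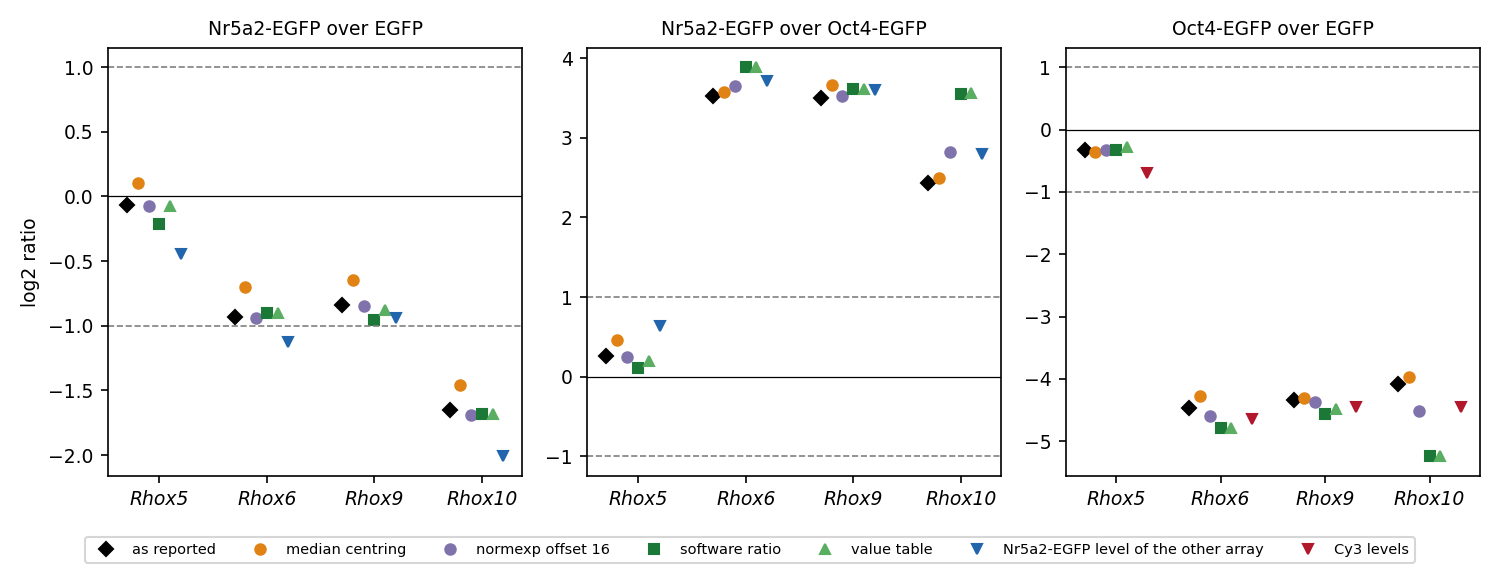
Log2 ratio of the 4 genes in each comparison under the processing alternatives, 1 symbol per alternative and no error bars; dashed lines mark a 2-fold difference. The values of Rhox6 and Rhox9 over Oct4-EGFP lie between 3.50 and 3.89, those of Rhox10 spread from 2.43 to 3.56, and those of Rhox5 stay between the dashed lines in every panel.

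The repeated reading of the Nr5a2-EGFP clone gives a scale for these numbers, although it leaves out a dye effect in the direct ratios. None of the 4 genes was 2-fold apart between its readings, where 1.72% of all genes were, 0.996% higher and 0.725% lower on the EGFP array. The reading differences of the 4 genes ran from 0.10 to 0.38, all with the EGFP array higher, around a median of 0.28. The ratios of Rhox6, Rhox9 and Rhox10 over Oct4-EGFP were many times larger than their own reading differences, and the direct ratios of Rhox5 were smaller than its own.

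Besides the 4, 21 probes under 16 other Rhox names remained once outlier spots were left out, and 13 of these probes (9 names) were measured in all 4 channels. Over these 13 probes the median log2 ratio was 0.05 over EGFP, 0.33 over Oct4-EGFP and -0.25 for Oct4-EGFP over EGFP. Over the 4 genes, chosen with earlier results of these data known, the medians were -0.89, 2.97 and -4.21. Over all genes they were 0.03, 0.01 and 0.02. Only 1 of the 13 probes, that of Rhox13, was at least 2-fold apart in any comparison as processed here. With other processing, Rhox8 passed the threshold over Oct4-EGFP by the software's ratio (1.15) and the value table (1.17). Rhox2c passed it over EGFP with the other Nr5a2-EGFP reading (1.33) and, at the threshold itself, for Oct4-EGFP over EGFP by the Cy3 levels.

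Rhox13 lies at the gamma end of the cluster and encodes a homeodomain protein of fetal and adult germ cells. The files give its 60-base probe the span chrX:35474985-35476295 on mm9, which is longer than the probe. The log2 level was 11.66 and 11.67 in Nr5a2-EGFP cells, 10.82 in Oct4-EGFP cells and 12.91 in EGFP cells. The clones stood in the same order as for Rhox6, Rhox9 and Rhox10, with gaps wider than the 0.02 between the Nr5a2-EGFP readings. Those readings were both in Cy5 and leave out a dye effect. The log2 ratio was -1.25 over EGFP, 0.85 over Oct4-EGFP and -2.10 for Oct4-EGFP over EGFP. Rhox13 was therefore lower in the Nr5a2-EGFP clone than in the EGFP clone by 2.38-fold and, in the Oct4-EGFP clone, lower by 4.28-fold, while its difference over Oct4-EGFP missed the threshold.

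The alpha subcluster, which holds Rhox1 to Rhox4 with their many tandem copies, had 9 measured probes and none at least 2-fold apart in any of the 3 comparisons. Their log2 ratios ran from -0.62 to 0.38 over EGFP and from -0.73 to 0.80 over Oct4-EGFP. Several of these probes list 2 or more copies, and which copy gave the signal was not analysed here. Both Rhox2h probes disagreed in sign for Oct4-EGFP over EGFP, at 0.79 and -0.62. The Nr5a2-EGFP readings of the Rhox2c probe lay 0.95 apart, more than for any other measured Rhox probe. The single Rhox4a spot was an outlier on both arrays and was left out.

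Among the remaining beta genes, Rhox7 and Rhox8 lie between Rhox6 and Rhox9 on the chromosome and did not share their differences. The Rhox7 probes had log2 ratios of 0.61 and -0.10 over Oct4-EGFP. Rhox8, a gene of Sertoli and granulosa cells, is represented by a probe built on a purine repeat and by a second, ordinary one. They are printed for contrast, with capitals for the 44 bases that the first shares with a probe for Gm2598.
Rhox8: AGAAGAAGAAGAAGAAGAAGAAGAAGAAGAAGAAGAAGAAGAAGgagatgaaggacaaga
Rhox8: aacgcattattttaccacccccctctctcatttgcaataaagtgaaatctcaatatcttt
The repeat probe was saturated for the Nr5a2-EGFP clone on both arrays and gives no ratio over either clone. The ordinary probe had log2 ratios of 0.32 over EGFP, 0.67 over Oct4-EGFP and -0.35 for Oct4-EGFP over EGFP. In the gamma subcluster, Rhox12 was not well above background in any channel, and Rhox11 was above it only on the EGFP array, where its log2 ratio was -0.15.

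**Figure D4:**
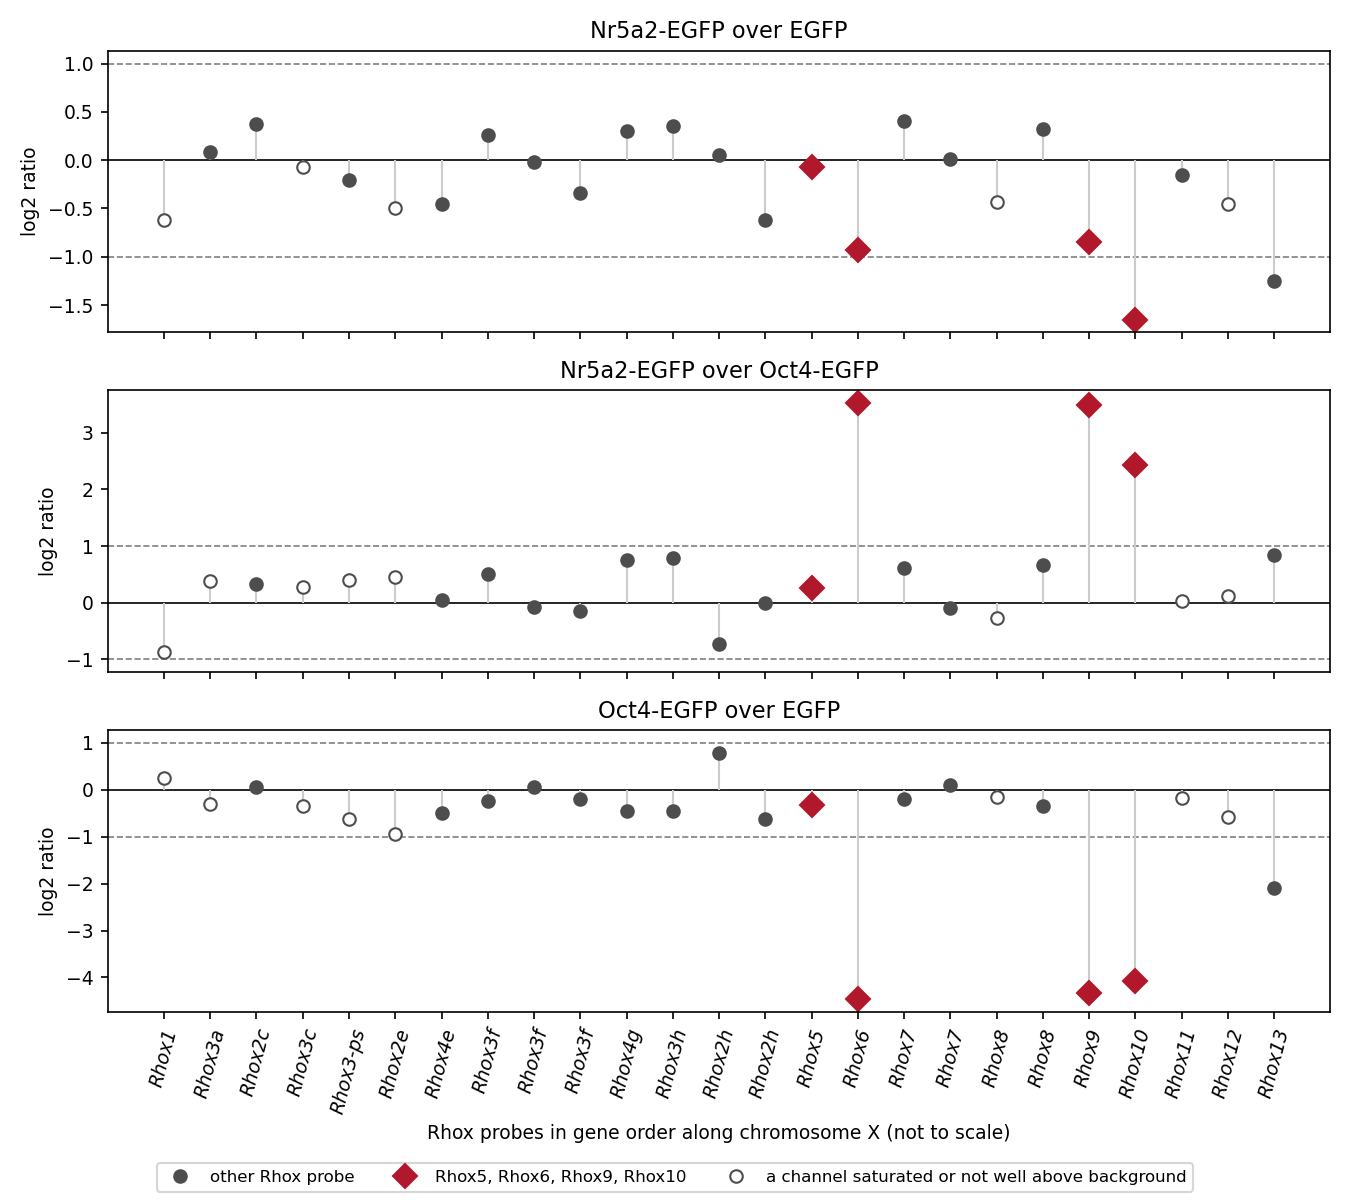
Log2 ratio of the 25 Rhox probes that remained without outlier spots in each comparison, in gene order along chromosome X and not to scale. Red diamonds are Rhox5, Rhox6, Rhox9 and Rhox10, filled circles other probes measured in both channels of that comparison, and open circles probes with a channel saturated or not well above background there; dashed lines mark a 2-fold difference. Past the dashed lines lie Rhox10 and Rhox13 over EGFP, Rhox6, Rhox9 and Rhox10 over Oct4-EGFP, and Rhox6, Rhox9, Rhox10 and Rhox13 for Oct4-EGFP over EGFP, while the Rhox7 and Rhox8 probes between Rhox6 and Rhox9 lie inside them.

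Genes around the cluster were read as a measure of the region. The Rhox probes span 722.3 kb, and 43 other genes have a probe within 1 Mb of the outermost ones. For the Nr5a2-EGFP clone over EGFP, 1 of 35 tested was higher and 1, Tmem255a (-1.78), was lower. Over Oct4-EGFP, 2 of 32 were higher, namely Cul4b (1.21), the scaffold of a ubiquitin ligase, and Gm9 (1.05), and none was lower. For Oct4-EGFP over EGFP, 1 of 35 was higher and 6 were lower. The lower ones were Tmem255a (-2.29), Zbtb33 (-1.23), which encodes the methyl-CpG binding protein Kaiso, Slc25a43 (-1.21), Gm9 (-1.05), Ndufa1 (-1.01), a subunit of respiratory complex I, and LOC673318, which was not well above background in the Oct4-EGFP clone and so at least 2.1-fold lower. That is 17.1% of the neighbours, beside 9.85% of all X genes tested other than Rhox genes, these neighbours included, and 5.86% of all genes. A single unnamed probe inside the cluster was the 1 higher feature in both comparisons with the EGFP clone, at 1.25 for Nr5a2-EGFP and 1.44 for Oct4-EGFP. Among the neighbours tested the largest log2 ratio in size was the -2.29 of Tmem255a, smaller than those of Rhox6, Rhox9 and Rhox10 in that comparison.

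The genes nearest to each member were sought among 14767 named genes measured in all 4 channels, by the straight-line distance of the direct log2 ratios over EGFP and over Oct4-EGFP. Rhox6 and Rhox9 were each other's nearest gene, 0.10 apart on this scale. Their next nearest was Dmrtc1b, another X-linked gene, at 0.33 from Rhox6 and 0.23 from Rhox9, with a log2 ratio of 3.39 over Oct4-EGFP. The third was Phlda2, an imprinted gene that limits placental growth, at 0.88 and 0.79. Rhox10 was nearest to Hand1, a factor of trophoblast giant cells, at 0.445, to Bpifb5 at 0.448 and to the X-linked gene Xlr4b at 0.50. Rhox5 lay in the densest region, where 4923 genes were within 0.5 of it, against 2 for each of the other members, so its nearest genes (Gm5591, Srgn and Ccl17) single out nothing.

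Other transcription factors of the placenta were read beside the Rhox genes. Of 7 such genes, 6 were tested, and Hoxb2 was not well above background. None was at least 2-fold apart in the Nr5a2-EGFP clone over EGFP, where the median was -0.31. Over Oct4-EGFP, 2 of 6 rose, Cdx2 (4.48), the trophectoderm master regulator, and Esx1 (1.78), an X-linked homeobox gene of the placental labyrinth, with a median of 0.87. For Oct4-EGFP over EGFP, 3 of 6 fell, Cdx2 (-4.83), Esx1 (-2.48) and Dlx3 (-1.65), a homeobox gene needed for placental development, with a median of -1.19. Of these 6 genes, only Cdx2 had larger log2 ratios than Rhox6 in the comparisons with Oct4-EGFP.

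Factors known to silence germline genes, DNA methyltransferases among them, were read next. Of 15 tested, Uhrf1 and Ehmt1 were saturated in Nr5a2-EGFP cells on both arrays, so their ratios over the other clones are not settled, and none of the others was 2-fold apart over EGFP. Over Oct4-EGFP, 2 rose: Dnmt3a (1.25), a de novo DNA methyltransferase, and Dnmt3l (1.79), its catalytically inactive partner. For Oct4-EGFP over EGFP, 4 fell: Dnmt3a (-1.76), E2f6 (-1.37), a repressor of germline genes, Dnmt3l (-1.30) and Dnmt3b (-1.05), whose dimmer probes missed the threshold. Uhrf1, which guides maintenance methylation, was at -0.54 by its brighter probe and at 1.92 by its other one. The value of the brighter probe rests on its saturated readings and is not settled. The medians were -0.08, 0.25 and -0.18 in the 3 comparisons. Dnmt3a and Dnmt3l, like Rhox6 and Rhox9, were thus lowest in the Oct4-EGFP clone. DNA methylation was not measured.

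Other germline genes known to be held silent by promoter methylation were set beside Rhox10. Over EGFP, 3 of 13 were lower: Dazl (-1.61), an RNA-binding protein of germ cells, Hormad1 (-2.06, other probe -0.43), a meiotic chromosome axis protein, and the testis tubulin gene Tuba3a, which was saturated in the EGFP clone and so at least 4.04-fold lower (other probe -2.34). Over Oct4-EGFP, 1 of 12 rose, Sycp3 (1.61, other probe 0.49), a synaptonemal complex protein, and 2 fell, Hormad1 (-2.69, other probe -1.11) and Tuba3a (-1.22, other probe -1.43). For Oct4-EGFP over EGFP, 2 of 13 fell, Dazl (-2.09) and Sycp3 (-1.22). Tuba3a missed the threshold there at -0.80 (other probe -0.91), although its brighter probe was saturated in the EGFP clone and its Cy3 levels after loess and Aquantile gave at least 2.24-fold lower. Taf7l was saturated in Nr5a2-EGFP cells on both arrays, so its ratios over the other clones are not settled. The medians lay between -0.15 and -0.04, Taf7l included. Over EGFP and for Oct4-EGFP over EGFP, the median was the value of Taf7l itself, which rests on its saturated readings. Dazl had the clones in the same order as Rhox10, and Hormad1 did not, since it was highest in the Oct4-EGFP clone.

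Gabpa, Sp1 and Sp3, whose proteins are reported to act on Rhox5 transcription, were within 2-fold over EGFP. Over Oct4-EGFP, Sp3 (1.85), which binds GC-rich promoters, rose, and for Oct4-EGFP over EGFP it fell (-1.35). By their brightest probes, Gabpa and Sp1 stayed within 2-fold in every comparison, as Rhox5 itself did, although a dimmer Gabpa probe lay at the lower threshold over Oct4-EGFP.

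The RefSeq promoter table (build GRCm38.p6) holds Rhox5, Rhox10 and Rhox13, and these sequences are printed because CpG sites in Rhox promoters are where silencing methylation is known to sit. Each runs over 300 bases on the plus strand, ending just past the annotated start, with CpG sites in capitals. They lie at chrX:37754358-37754657 for Rhox5, chrX:38066225-38066524 for Rhox10 and chrX:38120590-38120889 for Rhox13.
Rhox5: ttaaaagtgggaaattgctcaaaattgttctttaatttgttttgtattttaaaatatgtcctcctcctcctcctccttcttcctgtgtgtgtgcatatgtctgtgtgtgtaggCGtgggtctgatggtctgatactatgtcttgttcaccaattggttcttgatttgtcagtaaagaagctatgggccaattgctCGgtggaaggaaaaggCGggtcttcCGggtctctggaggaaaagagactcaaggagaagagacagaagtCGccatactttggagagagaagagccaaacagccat
Rhox10: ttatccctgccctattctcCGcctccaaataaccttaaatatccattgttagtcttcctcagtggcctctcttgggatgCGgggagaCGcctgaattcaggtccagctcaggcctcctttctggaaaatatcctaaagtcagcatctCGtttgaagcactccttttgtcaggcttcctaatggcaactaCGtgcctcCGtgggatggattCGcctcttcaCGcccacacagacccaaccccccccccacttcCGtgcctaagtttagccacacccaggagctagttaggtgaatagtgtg
Rhox13: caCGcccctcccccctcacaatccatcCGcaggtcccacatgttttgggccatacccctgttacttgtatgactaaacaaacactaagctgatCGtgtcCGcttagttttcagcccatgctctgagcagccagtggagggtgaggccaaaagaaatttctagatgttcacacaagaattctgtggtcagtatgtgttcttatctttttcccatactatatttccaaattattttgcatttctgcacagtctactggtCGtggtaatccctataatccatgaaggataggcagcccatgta
Rhox5 and Rhox13 had 5 CpG sites each and Rhox10 had 9, beside a median of 7 over 32851 promoters. As few or fewer were found in 43.6% of promoters for the count of Rhox5 and in 56.5% for that of Rhox10, so none of the 3 stands out as CpG-rich or CpG-poor. The motif GATA, searched on both strands, occurred 1 time in Rhox5, 3 times in Rhox10 and 2 times in Rhox13, and 57.9% of all promoters hold it. The motif GGAA, the core bound by ETS factors such as GABP, occurred 6, 4 and 2 times, and 96.0% of all promoters hold it. Neither motif can overlap the other, and a match is a description of the letters only.

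Markers of other cell types were read in these comparisons and are given as measured. Of 9 trophectoderm markers, 8 were well above background in every channel and Elf5 in none. Their summed processed intensity was 106419 and 86071 in Nr5a2-EGFP cells, 25037 in Oct4-EGFP cells and 109748 in EGFP cells, so it was low in the same clone as Rhox6, Rhox9 and Rhox10. Of 7 ES cell markers, all were well above background except Pou5f1 in Nr5a2-EGFP cells on the Oct4 array. Without Nanog, which was saturated in Nr5a2-EGFP and Oct4-EGFP cells, the other 6 summed to 21237 and 16621 in Nr5a2-EGFP cells, 102816 in Oct4-EGFP cells and 24601 in EGFP cells. Esrrb had the highest level of the 6 in Oct4-EGFP cells, at 15.85. Its Nr5a2-EGFP readings differed by -1.45 (EGFP array minus Oct4 array) and those of Zfp42 by 1.14. For Oct4-EGFP over EGFP, 5 of the 7 were at least 2-fold higher and none was lower. All 7 germ cell markers were detected in every channel. Without Prdm1, which was saturated in Nr5a2-EGFP cells, the other 6 summed to 22170 and 19036 in Nr5a2-EGFP cells, 12441 in Oct4-EGFP cells and 19068 in EGFP cells. This sum was lowest in the Oct4-EGFP clone, but the markers did not share 1 direction. For Oct4-EGFP over EGFP, 2 of the 7 fell, the Dazl and Sycp3 already given, and Dppa3, a marker of primordial germ cells, was at -0.85. Ddx4 (0.16), Dnd1 (0.47) and Nanos3 (0.46) went the other way, within 2-fold. The list median of 0.04 was the value of Prdm1 itself, which rests on its saturated readings and is not settled. The 5 primitive endoderm markers on the array summed to 3490.5 and 3161.0 in Nr5a2-EGFP cells, 1847.1 in Oct4-EGFP cells and 3357.1 in EGFP cells. This sum was again lowest in the Oct4-EGFP clone, but only Dab2 (-2.64) was at least 2-fold apart for Oct4-EGFP over EGFP. Gata6 (-0.37) and Foxa2 (-0.49) were within 2-fold. Gata4 (0.60) went the other way, and Sox17 was at least 1.03-fold higher (other probe -0.05). The 5 fibroblast markers summed to 6903.2 and 6406.3 in Nr5a2-EGFP cells, 10359 in Oct4-EGFP cells and 8273.8 in EGFP cells. This sum was highest in the Oct4-EGFP clone, but only Twist1 (1.86) was at least 2-fold apart for Oct4-EGFP over EGFP. Thy1 was at 0.51, whereas Col1a1 (-0.11), Col1a2 (-0.38) and Col3a1 (-0.18) went the other way, and the list median was -0.11. Sox17 was not well above background in EGFP cells, and Sox7 has no probe under that name. The part of cell type in the Rhox differences was not tested.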

How the data were processed

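The authors deposited each spot's intensity as scanner files. Their headers name Agilent Feature Extraction 10.7.3.1 and place probes on mm9, and the submitters' processing notes name 9.3.2.1. The processed intensity and the log10 ratio of Cy5 over Cy3 were computed by that software, per the file headers, background-subtracted and dye-normalized, and the deposited error of that ratio is a score from the same software. The authors' deposited value table followed that ratio, converted to log2, at r = 0.997 on both arrays with slopes of 0.988 and 0.987, which settles its log2 scale and direction. Its medians were 0.03 (EGFP array) and 0.05 (Oct4 array), and how it was centred is not stated in any source used here.

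For this report, limma 3.58.1 under R 4.3.3 corrected mean spot signals by local background (normexp, offset 50) and normalized within arrays by loess, with Aquantile between arrays for levels. Control spots and the 530 (EGFP array) and 523 (Oct4 array) outlier spots were left out, and saturated spots were kept. The steps were tested on simulated data. Spots of a probe were averaged; 398 probes printed 10 times had a median SD of 0.068 and 0.066. A gene with several probes took the brightest. A gene was tested where at least 1 channel was well above background. A ratio with 1 channel saturated or not well above background is a bound, written as at least N-fold and taken from Aquantile levels, with the dim level no lower than the dimmest probe well above background, and it is open to dye bias. Gene symbols were updated through RefSeq for 25974 probes (66.1%). The named genes were all Rhox probes, neighbours and list members at least 2-fold apart, and the 3 nearest genes per member. Some list members are not reported here. The members, lists and rules were chosen with earlier results of these data known. The arrays share a slide, and their number limits the precision of every value. No test was run.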

Additional observations from a re-analysis of the deposited data

How the results depend on the processing

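No paired analysis was possible because each pair of clones was hybridised once. For the same reason no array could be left out, and no slide block could be fitted, since both arrays lie on 1 slide. Each member has 1 probe, well above background in every channel, so dropping the filter on dim probes or averaging probes could not move its values, and 5 of 7 alternatives could. These were median centring, an offset of 16, the software's ratio, the value table and, for the direct comparisons, the Nr5a2-EGFP level of the other array or, for Oct4-EGFP over EGFP, the Cy3 levels. The count of members at least 2-fold apart stayed at 3 over Oct4-EGFP and for Oct4-EGFP over EGFP under these 5. Over EGFP it was 2, not 1, with the Nr5a2-EGFP level of the other array, where Rhox6 was added. Of 64 gene values under alternatives that could move them, the repeated readings included, 48 moved by less than the spread of the repeated readings and 16 by more, and no called value changed sign. Rhox10 moved furthest, between 2.43 and 3.56 over Oct4-EGFP and between -5.24 and -3.96 for Oct4-EGFP over EGFP. The cause was not tested.

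Median centring in place of loess put the median of all genes over EGFP at 0.16, against 0.03, and the share of higher genes among those called at 63.5% (1556 higher, 895 lower), against 39.8% (869 and 1317). The member ratios given above are not shifted for it. The software's ratio called 1784 higher and 2125 lower over EGFP, 1956 and 2597 over Oct4-EGFP (1185 and 1856 after loess), and 2591 and 2465 for Oct4-EGFP over EGFP (1708 and 1542 after loess). The value table called 2042 and 2533 over Oct4-EGFP.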

Other observations

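The Xlr genes, a family of X-linked copies that lies outside the Rhox cluster and is expressed in lymphocytes and germ cells, were looked at after Xlr4b appeared among the genes nearest to Rhox10, so they were chosen after their values were seen. For the Nr5a2-EGFP clone over Oct4-EGFP, 4 of 8 tested were at least 2-fold higher: Xlr4a (2.46), Xlr4b (1.97), Xlr3b (1.90) and Xlr4d (1.03). For Oct4-EGFP over EGFP, 4 of 7 tested were lower: Xlr4b (-3.43), Xlr3b (-2.52), Xlr4a (-2.34) and Xlr4d (-2.32). For the Nr5a2-EGFP clone over EGFP, Xlr4b (-1.45) and Xlr4d (-1.29) were lower. Xlr4b and Xlr4d thus had the clones in the order of Rhox10, whereas Xlr5c stayed within 2-fold in all 3 comparisons (-0.01, 0.37 and -0.38). The copies are close in sequence, and which copy gave each signal was not analysed here.

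A single unnamed probe on chromosome X, within 1 Mb of the Rhox probes, read 5.03 log2 units higher for the Nr5a2-EGFP clone on the EGFP array than on the Oct4 array, while its ratios over EGFP and over Oct4-EGFP were 0.30 and -0.63. No member of the Rhox cluster measured in all channels differed by more than 0.95 between these readings.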
